A study of Mus musculus with 56 samples.

Results

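The 39 genes described here encode the complement and coagulation factors of the liver, together with their inhibitors and the fibrinolytic proteins. They were taken by gene symbol from a fixed list, out of 21935 genes in the table, and all 39 had 5 or more reads in 3 or more mice, as had 14105 genes in all. RNA was sequenced from livers of 56 male C57BL/6J mice, 8 in each of 7 groups. The chow group was fed chow and given vehicle. The other 6 groups were diet-induced obese (DIO) mice fed the AMLN diet, rich in fat, fructose and cholesterol, which leads to metabolic dysfunction-associated steatohepatitis (MASH). Only those whose liver biopsy showed steatosis and fibrosis had entered the study. Chow or AMLN diet was fed from before dosing began. The AMLN-fed mice were dosed daily under the skin for 8 weeks. They received vehicle (DIO-MASH vehicle), or zalfermin at 0.05 mg/kg (low dose) or 0.2 mg/kg (high dose). The others received semaglutide at 3 µg/kg (low dose) or 120 µg/kg (high dose), or both drugs (combination). Zalfermin mimics FGF21, a hormone of the liver, and semaglutide activates the receptor of the gut hormone GLP-1. The methods of the study give the combination as both low doses, whereas the series design text gives both high doses, so the comparison of the combination with single drugs at matched dose rests on the methods.

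Complement and coagulation are cascades of serine proteases that circulate as inactive precursors, made mostly by hepatocytes. In complement, proteases activated by lectins and the C1 proteases cleave C4 and C2, and C3 is the point where the routes meet. C5 to C9 assemble a pore in the target membrane. In coagulation, the contact and tissue factor routes activate factor X, thrombin (F2) is formed, and fibrinogen is cut to fibrin, which plasmin later dissolves. Antithrombin, heparin cofactor II and the protein C system hold clotting in check. Several of these proteins, among them fibrinogen and C3, also rise in the acute phase response to injury or infection.

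Reads per mouse ran from 5228187 to 20885786 (median 12206788). Levels are given as CPM, read counts brought to a common library total with TMM scaling, and mice are numbered 1 to 8 within a group. Differences are log2 fold changes ± SE from edgeR's quasi-likelihood fit with 8 mice a group, and a gene was called at an adjusted p under 0.05 over the 14105 genes. As the liver label requires, none of 11 hepatocyte markers was at 0 in any group, and their summed level was 63213 to 85308 CPM in DIO-MASH vehicle and 150505 to 238802 CPM in chow. Of the 6 markers of monocyte-derived macrophages, 6 were lower in chow, 4 with high-dose zalfermin and 4 with the combination, and their sum was 325 to 714 CPM in DIO-MASH vehicle, 49.8 to 85.9 in chow and 87.7 to 406 in the combination. Of the 6 markers of hepatic stellate cells, 6, 2 and 6 were lower in those comparisons, with 2 lower at high-dose semaglutide. The sum of the stellate markers was 905 to 1510.3 CPM in DIO-MASH vehicle, 136 to 264 in chow and 353 to 702 in the combination. Of 4 B cell markers 4 were lower in chow, 4 with high-dose semaglutide (median -2.38) and 1 with the combination. Their sums were 2.35 to 44.9 CPM (median 4.99) in DIO-MASH vehicle and 1.86 to 5.28 (median 2.91) with high-dose semaglutide. The chow median was 3.34 CPM, so the group medians lay closer together than the fold change, at a few CPM. Of 6 Kupffer cell markers 2 were higher and 2 lower in chow, 1 was higher with high-dose zalfermin and 3 were higher with the combination. In chow 3 of 5 cholangiocyte and 4 of 4 T cell markers were lower, 1 of 6 sinusoidal endothelial markers was higher and 2 were lower, and 1 of 4 red blood cell markers and the 1 pancreas gene tested were higher. With the combination 1 cholangiocyte and 1 red blood cell marker and the pancreas gene were lower. No macrophage, stellate or B cell marker was at 0 in a group, and the part of these cells in the results was not tested.

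Some livers stood apart. Chow mice 2 and 7 and combination mouse 6 had 5193, 1613 and 1522 CPM of Saa1, a serum amyloid A gene of the acute phase, while the other 53 mice had between 15.9 and 535 CPM. These 3 mice also had the highest sums of the 39 members, 112616, 90652 and 82225 CPM. The counts of members, roles and lists in chow and combination, and the fold changes of the leading members, are also given without these 3 mice, a choice made after their values were seen. Combination mouse 8, with 535 CPM of Saa1 and 30898 CPM summed over 18 acute phase genes, was kept in that fit. The highest DIO-MASH vehicle values were 415 and 21676 CPM. Chow mouse 8 and low-dose semaglutide mouse 6 resembled their groups least, with a mean Spearman correlation over genes of 0.947 and 0.967 with the other mice of the group. The study left out 1 mouse of the low-dose semaglutide group, which the table does not mark, so all 8 were kept and each was left out in turn.

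**Figure D1:**
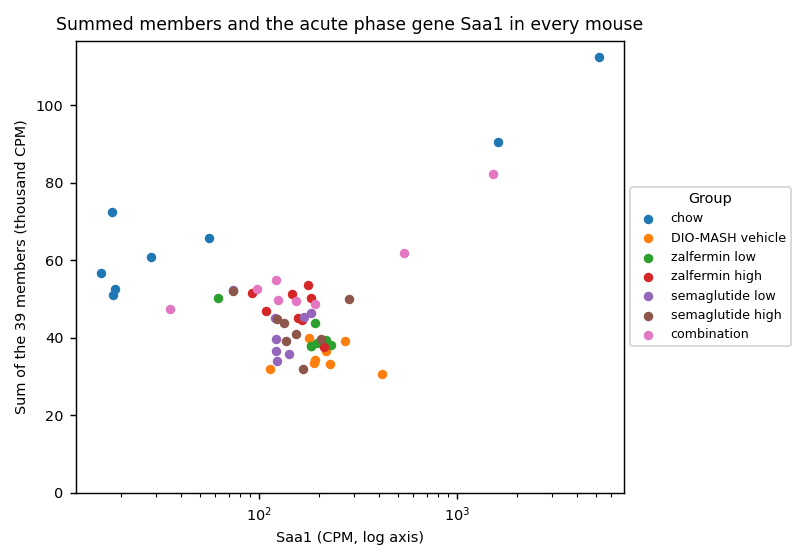
Summed level of the 39 members (vertical axis, in units of 1000 CPM) against Saa1 (horizontal axis, CPM, log scale), 1 point per mouse and 1 color per group. The 3 mice beyond 1000 CPM of Saa1 are chow mice 2 and 7 and combination mouse 6, and they hold the highest member sums.

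Divided by the exon length of the gene, the highest mean levels in chow livers were those of C3 (3550.1 CPM per kb), vitronectin Vtn (2496), the fibrinogen chains Fga (2095) and Fgg (2089.8), Fgb (1568) and plasminogen Plg (1392). The lowest were factor B, Cfb (4.70 CPM per kb), and the lectin pathway protease Masp1 (11.3), which other tissues also make. Cfb overlaps the read-through gene Gm20547 on the same strand, so some of its reads could have been counted elsewhere, which was not tested. In DIO-MASH vehicle C3 and Vtn again led (1555 and 1221 CPM per kb) and Cfb was last (3.98). The member that changed rank most was antiplasmin Serpinf2, at 565 CPM per kb and rank 10 in chow and 203 and rank 20 in DIO-MASH vehicle. Together the members took 4.55 to 8.72% of all reads in chow livers, 3.64 to 4.40% in DIO-MASH vehicle and 4.59 to 7.53% in the combination.

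Most complement and coagulation factors were lower in DIO-MASH livers than in chow livers, and the high dose of zalfermin and the combination raised many of them. Against DIO-MASH vehicle, 33 of 39 members were called higher in chow and 0 lower, where 55.4% of all genes tested were called and 26.5% were called higher. High-dose zalfermin raised 21 members and lowered 0 (all genes 17.2% called, 8.54% higher), and the combination raised 26 and lowered 1, the terminal component C6 (all genes 20.9% called, 10% higher). High-dose semaglutide raised 8 and lowered 0 (all genes 2.43% called, 1.43% higher), and low-dose zalfermin raised 2, F7 and Serpind1, and lowered 0 (all genes 0.468% called, 0.418% higher). With low-dose semaglutide edgeR called 0 members and 0% of all genes. There 14 members had an unadjusted p under 0.05, as had 1222 of all 14105 genes. DESeq2 called 2 members there, and 32 genes in all. The median log2 fold change over the members was 0.86 for chow, 0.20 for low-dose zalfermin, 0.43 for high-dose zalfermin, 0.20 for low-dose semaglutide, 0.23 for high-dose semaglutide and 0.45 for the combination, whereas the median over all genes tested lay between -0.03 and 0.00. Each of these 6 comparisons rests on the same DIO-MASH vehicle mice.

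**Figure D2:**
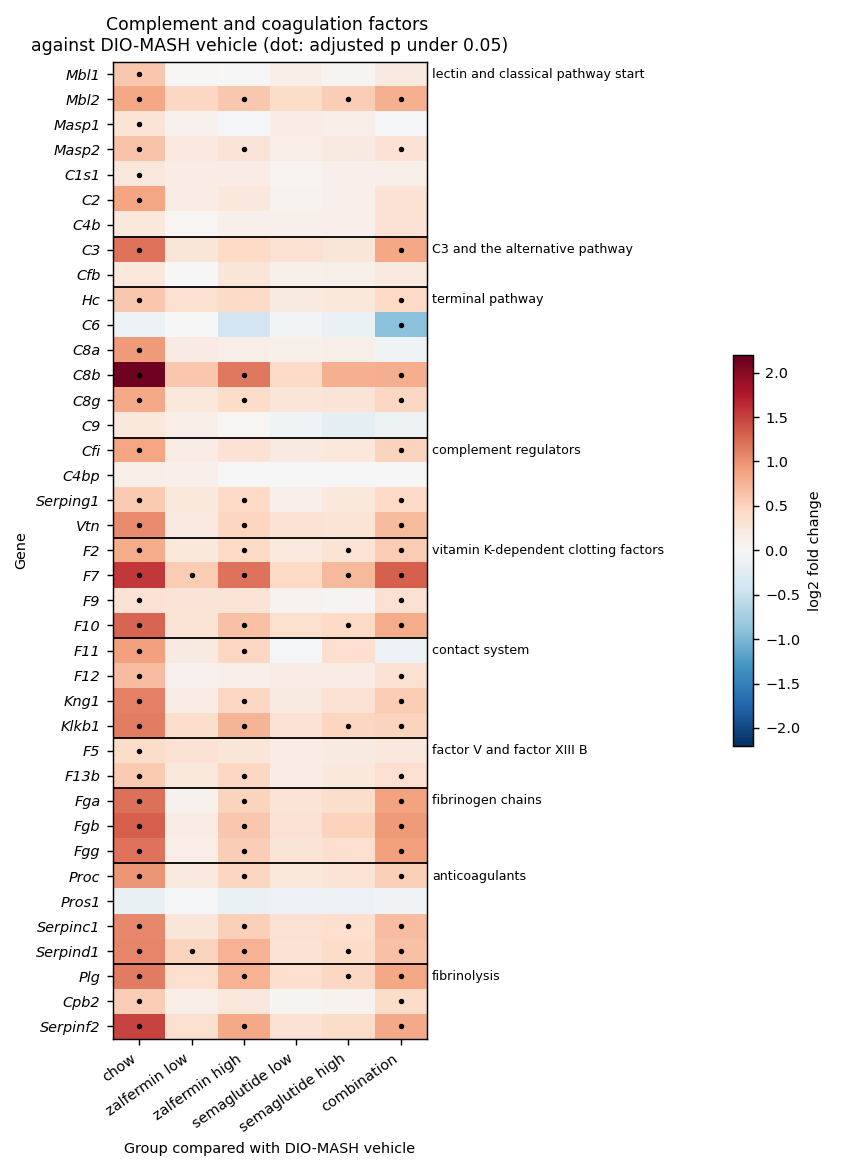
Log2 fold change of each of the 39 members (rows, grouped by role) in 6 groups against DIO-MASH vehicle (columns), from blue (lower) to red (higher), with a dot where the adjusted p was under 0.05. The chow column holds 33 dots, the combination 27, high-dose zalfermin 21, high-dose semaglutide 8 and low-dose zalfermin 2. C6 is the 1 member with a dot in blue. Relative to hepatocyte markers the median of the 39 members was below 0 in every column.

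These directions depended on the reference against which the members were read. Whole liver RNA holds several cell types, and fewer hepatocytes cannot be told apart from less of these RNAs per hepatocyte. All 11 hepatocyte markers were higher in chow (median 1.18), 10 with high-dose zalfermin (median 0.59), 9 with the combination (median 0.66), 4 with high-dose semaglutide (median 0.39) and 2 with low-dose zalfermin (median 0.30). When the libraries were scaled to those markers in place of TMM, the median of the members turned negative in every comparison with DIO-MASH vehicle: -0.22 for chow, -0.16 and -0.24 for low- and high-dose zalfermin, -0.09 and -0.13 for low- and high-dose semaglutide, and -0.17 for the combination. That scaling moved the median of all genes to -1.06, -0.37, -0.68, -0.25, -0.37 and -0.65 in the same order, so the members kept a median 0.85 above all genes in chow, 0.45 above with high-dose zalfermin and 0.48 above with the combination. Under it 3 members were called higher and 20 lower in chow, 2 and 23 with high-dose zalfermin, 2 and 14 with the combination, 1 and 9 with high-dose semaglutide and 0 and 3 with low-dose zalfermin. Of all 14105 genes tested, that scaling called 12796 in chow, 10955 with high-dose zalfermin and 10964 with the combination. It called 5276 with high-dose semaglutide and 4866 with low-dose zalfermin, so falls were common among all genes and not particular to the members. The members as a list thus rose against the median of all genes tested, but by less than the hepatocyte markers. TMM scaling does not refer to total reads, and its factors were 0.708 to 0.897 in chow and 1.078 to 1.202 in DIO-MASH vehicle. Rises in CPM from vehicle to chow are therefore larger than rises in the share of reads. The median share of all reads held by the members was 3.87% in DIO-MASH vehicle, 5.14% in chow and 4.71% with high-dose zalfermin. Factor VII was the member called higher under both scalings in chow, both high doses and the combination, with 0.48, 0.51, 0.31 and 0.70 relative to the markers, and C8b was so in chow and with high-dose zalfermin (1.08 and 0.50). Serpinf2 was called higher under both scalings in chow, and Plg with the combination.

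**Figure D3:**
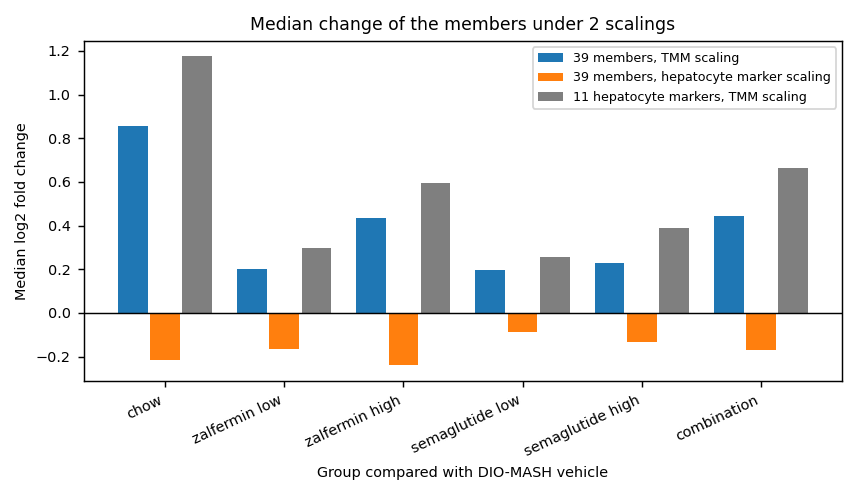
Median log2 fold change against DIO-MASH vehicle (vertical axis) in 6 groups (horizontal axis) for the 39 members under TMM scaling (blue), for the same members scaled to hepatocyte markers (orange) and for the 11 hepatocyte markers under TMM (gray). The blue bars run from 0.20 to 0.86 and every orange bar lies below 0.

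Without the 3 mice with high Saa1, 30 members were called higher and 1 lower in chow (median 0.69), the lower one being protein S, Pros1 (-0.45 in place of -0.16), and Masp1, Hc and F9 were no longer called. The combination then raised 25 and lowered 1 (median 0.41), with F9 and Cpb2 no longer called and C2 called in addition. Of all 14092 genes tested in that fit, 7451 were called in chow and 2912 with the combination. For 23 members the 8 chow mice and the 8 DIO-MASH vehicle mice did not overlap in CPM, as for 16% of all genes tested. The same held for 12 members with high-dose zalfermin (all genes 4.8%), 14 with the combination (all genes 3.98%) and 2 with low-dose zalfermin (all genes 0.489%). Among the remaining mice the groups did not overlap for 23 members in chow (all genes 19.2%) and 14 with the combination (all genes 4.6%). The labels number the samples in 4 separate series, whose meaning the labels do not give, and each series holds DIO-MASH vehicle mice. The last series holds only 2 chow mice (7 and 8) and 1 vehicle mouse. Within a series, with 1 to 4 mice a group, the median member difference from vehicle was 0.91, 0.54, 0.74 and 0.85 for chow in the 4 series, and 0.54, 0.27 and 0.44 for high-dose zalfermin and 0.40, 0.60 and 0.50 for the combination in 3. For F7 the combination differed by 1.12, 1.78 and 1.05 and for C6 by -0.99, -0.75 and -0.33.

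Of the 7 proteins that start the lectin and classical pathways, 6 were higher in chow, 2 with high-dose zalfermin and 2 with the combination, and their medians were 0.60, 0.16 and 0.31, against -0.47, -0.51 and -0.31 relative to hepatocyte markers. Mannose-binding lectin C, Mbl2 (chr19:30232942-30239687, plus strand), which recognises sugars on microbes, was at 149 to 285 CPM (median 226) in DIO-MASH vehicle and at 325 to 488 CPM (median 402) in chow. It was at 195 to 392 CPM (median 333) with high-dose semaglutide and at 347 to 432 CPM (median 383) with the combination. The chow and combination mice lay above every vehicle mouse, while the semaglutide mice overlapped with them. The differences from vehicle were 0.86 ± 0.14 (adjusted p = 1.09e-06) for chow, 0.60 ± 0.14 (adjusted p = 0.00149) for high-dose zalfermin, 0.54 ± 0.14 (adjusted p = 0.0257) for high-dose semaglutide and 0.79 ± 0.14 (adjusted p = 3.78e-05) for the combination. Its sister lectin Mbl1 was higher in chow (0.60 ± 0.13, adjusted p = 1.04e-04) and stood at 0.00 ± 0.13 (adjusted p = 0.999) and 0.21 ± 0.13 (adjusted p = 0.255) with high-dose zalfermin and the combination. The protease Masp2, which is activated by the lectins, was higher in chow (0.62 ± 0.08, adjusted p = 1.29e-08), with high-dose zalfermin (0.29 ± 0.08, adjusted p = 0.0108) and with the combination (0.32 ± 0.08, adjusted p = 0.00409). The remaining members of this step, the proteases Masp1, C1s1 and C2, were called in chow (0.30, 0.24 and 0.87) and in none of the 5 drug groups, a difference that was not tested. Complement C4, C4b, was called in none of the 6 comparisons (0.23 in chow, 0.31 with the combination). With the 3 high-Saa1 mice left out, 5 of the 7 lectin and classical pathway members were called higher in chow and 3 with the combination (medians 0.51 and 0.23), with Mbl2 at 0.77 and 0.78 and Masp2 at 0.59 and 0.31.

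C3, the protein on which all complement routes converge (chr17:57203970-57228136, minus strand), was at 5717 to 10042 CPM (median 8217) in DIO-MASH vehicle, 10977 to 39052 CPM (median 14942) in chow, 8607 to 12883 CPM (median 10713) with high-dose zalfermin and 10940.5 to 21874 CPM (median 13531) with the combination. Chow and combination mice did not overlap with vehicle. C3 was higher in chow (1.19 ± 0.17, adjusted p = 4.23e-08) and with the combination (0.86 ± 0.17, adjusted p = 1.41e-04), and stood at 0.44 ± 0.17 (adjusted p = 0.0591) with high-dose zalfermin, with 0.13, 0.25 and -0.24 relative to hepatocyte markers. Without the 3 mice with high Saa1 the values were 0.80 in chow and 0.75 with the combination. Factor B, the protease of the alternative pathway, had few reads and was called in no comparison with vehicle (0.24 ± 0.19, adjusted p = 0.292 in chow).

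The 6 members of the terminal pathway, which build the membrane pore, were the 1 role with calls in both directions. In chow 4 were higher, with the combination 3 were higher and 1 lower, and the role medians of 0.71 and 0.19 were -0.36 and -0.42 relative to hepatocyte markers. C8b, the beta chain of C8 (chr4:104766317-104804548, plus strand), showed the largest member difference between chow and DIO-MASH vehicle. It was at 62.9 to 114 CPM (median 87.7) in DIO-MASH vehicle, 314 to 521 CPM (median 373) in chow, 121 to 245 CPM (median 203) with high-dose zalfermin and 85.5 to 232 CPM (median 137) with the combination. Chow and high-dose zalfermin mice lay above every vehicle mouse, and the combination overlapped with vehicle. C8b differed from vehicle by 2.14 ± 0.25 (adjusted p = 2.90e-10) in chow, 1.16 ± 0.24 (adjusted p = 3.37e-04) with high-dose zalfermin and 0.79 ± 0.24 (adjusted p = 0.0128) with the combination, and by 1.08, 0.50 and 0.18 relative to hepatocyte markers. Its chromosomal neighbour C8a, the alpha chain (chr4:104815679-104876398, minus strand), was higher in chow (0.93 ± 0.23, adjusted p = 6.42e-04) but not called with high-dose zalfermin (0.15 ± 0.23, adjusted p = 0.719) or the combination (-0.07 ± 0.23, adjusted p = 0.857). The difference between both chains was not tested. The third chain, C8g, was higher in chow (0.83 ± 0.13, adjusted p = 2.39e-07), with high-dose zalfermin (0.40 ± 0.13, adjusted p = 0.0198) and with the combination (0.46 ± 0.13, adjusted p = 0.00614), and complement C5, Hc, in chow (0.58 ± 0.16, adjusted p = 0.00137) and with the combination (0.45 ± 0.16, adjusted p = 0.0337).

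C6, which binds C5b as the first step of pore assembly (chr15:4727175-4814967, plus strand), was the only member called lower in any of the 6 comparisons with DIO-MASH vehicle. Its level was 169.6 to 376 CPM (median 237) in DIO-MASH vehicle, 149.7 to 331 CPM (median 244) in chow, 206 to 364 CPM (median 259.9) with low-dose zalfermin, 157 to 388 CPM (median 246) with low-dose semaglutide and 92.4 to 190.1 CPM (median 141) with the combination. The combination mice lay below every low-dose zalfermin mouse and overlapped with the lower vehicle mice. C6 fell with the combination against vehicle (-0.89 ± 0.19, adjusted p = 4.97e-04), low-dose zalfermin (-0.90 ± 0.19, adjusted p = 0.0018), low-dose semaglutide (-0.83 ± 0.19, adjusted p = 0.00546) and high-dose semaglutide (-0.76 ± 0.19, adjusted p = 0.0213). The last call was lost without high-dose semaglutide mouse 5 or without combination mouse 3 or 4. In chow C6 did not differ past the threshold (-0.12 ± 0.19, adjusted p = 0.605), and with high-dose zalfermin it stood at -0.42 ± 0.19 (adjusted p = 0.121). Relative to hepatocyte markers it was lower in chow too (-1.18). C9, which completes the pore, was called in no comparison with vehicle (0.24 in chow and -0.12 with the combination). In the fit without the 3 mice with high Saa1, 3 of the 6 terminal members were called higher in chow and 3 with the combination (medians 0.56 and 0.10), with C8b at 2.09 and 0.73 and C6 at -0.16 and -0.92. C6 was again called lower with the combination.

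Among the 4 regulators of complement, 3 were higher in chow, 2 with high-dose zalfermin and 3 with the combination (medians 0.72, 0.38 and 0.46, or -0.35, -0.30 and -0.15 relative to hepatocyte markers). Vitronectin, Vtn, which blocks pore insertion (chr11:78499091-78502324, plus strand), was at 1758 to 2894 CPM (median 2060.1) in DIO-MASH vehicle, 3103 to 6034 CPM (median 4293) in chow, 2196 to 3153 CPM (median 2319.7) with low-dose zalfermin and 2718 to 5021 CPM (median 3363) with the combination. All chow mice lay above the vehicle mice, and the combination overlapped with vehicle. Vtn was higher in chow (1.03 ± 0.13, adjusted p = 4.79e-09), with high-dose zalfermin (0.48 ± 0.13, adjusted p = 0.00724) and with the combination (0.70 ± 0.13, adjusted p = 9.55e-05). Serping1, the C1 inhibitor, was higher in the same 3 groups (0.57, 0.43 and 0.44), and factor I, Cfi, which degrades C3b, in chow (0.86 ± 0.13, adjusted p = 1.13e-07) and with the combination (0.49 ± 0.13, adjusted p = 0.00393). The C4b-binding protein C4bp lay at 0.13, 0.00 and 0.01 and was not called. With the 3 high-Saa1 mice left out, 3 of the 4 regulators were called higher in chow and 3 with the combination (medians 0.53 and 0.41), with Vtn at 0.90 and 0.60 and Cfi at 0.69 and 0.44.

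All 4 vitamin K-dependent clotting factors, which bind membranes through residues that vitamin K helps to make, were higher in chow and with the combination, and 3 were higher with each high dose. Their medians were 1.05 in chow and 0.68 with the combination, and -0.03 and 0.07 relative to hepatocyte markers. Factor VII, F7, the protease that tissue factor activates (chr8:13026034-13035809, plus strand), was at 45.3 to 60.4 CPM (median 52.8) in DIO-MASH vehicle. It was at 125 to 199 CPM (median 159) in chow, 64.2 to 118 CPM (median 73.4) with low-dose zalfermin and 105 to 152 CPM (median 122) with high-dose zalfermin. It was at 55.9 to 125 CPM (median 66.0) with low-dose semaglutide, 55.7 to 111 CPM (median 89.9) with high-dose semaglutide and 106 to 219 CPM (median 121) with the combination. All mice of chow, both zalfermin doses and the combination lay above the vehicle mice. F7 was called in 5 of the 6 comparisons with vehicle: chow 1.55 ± 0.14 (adjusted p = 7.14e-13), low-dose zalfermin 0.56 ± 0.14 (adjusted p = 0.0429), high-dose zalfermin 1.19 ± 0.14 (adjusted p = 1.75e-08), high-dose semaglutide 0.71 ± 0.14 (adjusted p = 0.0049) and the combination 1.32 ± 0.14 (adjusted p = 1.66e-09). With low-dose semaglutide it stood at 0.45 ± 0.14 (adjusted p = 0.31). In fold, F7 was 2.28 times vehicle with high-dose zalfermin and 2.49 times with the combination.

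Factor X, F10, where the routes to thrombin meet, lies next to F7 on the same strand (chr8:13037308-13056676, plus strand). It was at 333 to 483 CPM (median 365) in DIO-MASH vehicle, 639 to 1273 CPM (median 935) in chow, 405 to 572 CPM (median 449) with low-dose zalfermin, 369 to 610.4 CPM (median 464) with low-dose semaglutide and 533 to 905 CPM (median 651) with the combination. Chow and combination mice lay above all vehicle mice. F10 was higher in chow (1.29 ± 0.13, adjusted p = 9.89e-12), with high-dose zalfermin (0.65 ± 0.13, adjusted p = 1.86e-04), high-dose semaglutide (0.44 ± 0.13, adjusted p = 0.0486) and the combination (0.81 ± 0.13, adjusted p = 5.37e-06). Prothrombin, F2, was at 1422 to 1698 CPM (median 1493) in vehicle, 2234 to 3238 CPM (median 2624) in chow, 1591 to 2224 CPM (median 1719.8) with low-dose zalfermin, 1498 to 2223 CPM (median 1716) with low-dose semaglutide and 2061 to 2448 CPM (median 2156) with the combination. F2 was higher in the same 4 groups (0.81, 0.44, 0.31 and 0.56), and its chow and combination mice did not overlap with vehicle. Factor IX, F9, was higher in chow (0.33 ± 0.12, adjusted p = 0.0214) and with the combination (0.33 ± 0.12, adjusted p = 0.0436), and both calls were lost without the 3 mice with high Saa1. In the fit without those mice, 3 of the 4 vitamin K-dependent factors were called higher in chow and 3 with the combination (medians 0.97 and 0.64), with F7 at 1.46 and 1.18, F10 at 1.19 and 0.74 and F2 at 0.76 and 0.54.

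All 4 members of the contact system, which starts clotting on surfaces and releases bradykinin, were higher in chow. Of them 3 were higher with high-dose zalfermin and 3 with the combination (medians 1.01, 0.46 and 0.41, or -0.06, -0.22 and -0.21 relative to hepatocyte markers). Kininogen, Kng1, the source of bradykinin, was at 1468 to 1784 CPM (median 1554) in DIO-MASH vehicle, 2593 to 4664 CPM (median 3246) in chow, 1602 to 1981 CPM (median 1754) with low-dose zalfermin, 1590.4 to 2069.8 CPM (median 1814) with low-dose semaglutide and 2062 to 2707 CPM (median 2311) with the combination. Chow and combination mice lay above all vehicle mice, and the combination mice also above those on low-dose zalfermin. Its differences were 1.12 ± 0.10 (adjusted p = 3.82e-13) in chow, 0.45 ± 0.10 (adjusted p = 7.28e-04) with high-dose zalfermin and 0.56 ± 0.10 (adjusted p = 4.25e-05) with the combination. Plasma prekallikrein, Klkb1 (chr8:45266689-45294859, minus strand), was at 101 to 163 CPM (median 127) in vehicle, 207 to 334 CPM (median 283) in chow, 139.6 to 227 CPM (median 168) with high-dose semaglutide and 101 to 208 CPM (median 179) with the combination. It was higher in chow (1.13 ± 0.14, adjusted p = 9.31e-10), with high-dose zalfermin (0.75 ± 0.14, adjusted p = 5.43e-05), high-dose semaglutide (0.47 ± 0.13, adjusted p = 0.0467) and the combination (0.49 ± 0.13, adjusted p = 0.00637). Factor XI, F11, the adjacent gene (chr8:45241174-45262031, minus strand), was higher in chow (0.90 ± 0.16, adjusted p = 4.20e-06) and with high-dose zalfermin (0.46 ± 0.16, adjusted p = 0.0357) and stood at -0.13 ± 0.16 (adjusted p = 0.605) with the combination. Factor XII, F12, was at 486 to 602 CPM (median 509.5) in vehicle, 504 to 627 CPM (median 544) with low-dose zalfermin and 569 to 735 CPM (median 667) with the combination, and was called in chow (0.67 ± 0.08, adjusted p = 2.21e-10) and with the combination (0.33 ± 0.08, adjusted p = 0.00107). In the fit without the 3 mice with high Saa1, 4 of the 4 contact members were called higher in chow and 3 with the combination (medians 0.79 and 0.43), with Kng1 at 0.96 and 0.54, Klkb1 at 1.08 and 0.58 and F12 at 0.62 and 0.32.

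Factor V, F5, the cofactor of factor Xa, was higher in chow (0.40 ± 0.11, adjusted p = 0.00114) and stood at 0.26 ± 0.11 (adjusted p = 0.0767) with high-dose zalfermin and 0.23 ± 0.11 (adjusted p = 0.118) with the combination. F13b, the carrier subunit of the enzyme that cross-links fibrin, was higher in chow (0.58 ± 0.09, adjusted p = 2.92e-07), with high-dose zalfermin (0.45 ± 0.09, adjusted p = 1.86e-04) and with the combination (0.37 ± 0.09, adjusted p = 0.00174). Relative to hepatocyte markers F5 and F13b were lower in chow (-0.66 and -0.49). With the 3 high-Saa1 mice left out, 2 of these 2 members were called higher in chow and 1 with the combination (medians 0.46 and 0.33), with F5 at 0.37 and 0.27 and F13b at 0.56 and 0.39.

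The 3 fibrinogen chains, which form the clot, moved together and are neighbours on chromosome 3. Fga lies at chr3:83026076-83033627, plus strand, Fgb at chr3:83040141-83049863, minus strand and Fgg at chr3:83007724-83015049, plus strand. Fga was at 2286 to 3426 CPM (median 2693) in DIO-MASH vehicle, 3767 to 11578 CPM (median 5501) in chow, 2574 to 3921 CPM (median 2642) with low-dose zalfermin, 2724 to 4882 CPM (median 3147) with low-dose semaglutide and 3250.3 to 9818 CPM (median 4495) with the combination. Fgb was at 2087 to 2775 CPM (median 2338) in vehicle, 3937 to 11262 CPM (median 5107) in chow, 2393 to 3343 CPM (median 2505) with low-dose zalfermin, 2414 to 4102 CPM (median 2867) with low-dose semaglutide and 2971 to 9124 CPM (median 3985) with the combination. Fgg was at 1686 to 2308 CPM (median 1869) in vehicle, 2595 to 7658 CPM (median 3710.1) in chow, 1791 to 2804 CPM (median 1969) with low-dose zalfermin, 1859.6 to 3227 CPM (median 2187) with low-dose semaglutide and 2364 to 6849 CPM (median 3096) with the combination. The highest chow value belonged to mouse 2 for all 3 chains, and the highest combination value to mouse 6. Chow mice lay above every vehicle mouse for each chain, and combination mice did so for Fgb and Fgg. All 3 chains were higher in chow (1.20, 1.32 and 1.20), with high-dose zalfermin (0.49, 0.60 and 0.55) and with the combination (0.88, 0.94 and 0.90). Without the 3 mice with high Saa1 they were at 0.93, 1.03 and 0.92 in chow and 0.68, 0.73 and 0.71 with the combination. With high-dose semaglutide their adjusted p ran from 0.0952 to 0.27. Relative to hepatocyte markers the medians of the chains were 0.15 in chow, -0.13 with high-dose zalfermin and 0.30 with the combination, and none of the 3 was called in those comparisons.

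Because the fibrinogen chains moved together, F7 and F10 are adjacent genes with large rises, and C6 moved the other way, the 170 bases before the first annotated start of each are shown for RefSeq mouse build GRCm38.p6, read 5′ to 3′ on the strand of the gene. Capitals mark matches to 2 general motifs, TTGCNNAA for C/EBP factors and TTCNNNGAA for STAT factors, searched on both strands. The STAT letters read the same on both strands, and no marked match overlaps another.
Fga: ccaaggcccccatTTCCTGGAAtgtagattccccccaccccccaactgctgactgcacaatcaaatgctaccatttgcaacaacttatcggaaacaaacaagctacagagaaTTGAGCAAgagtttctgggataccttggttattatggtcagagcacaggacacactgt
Fgb: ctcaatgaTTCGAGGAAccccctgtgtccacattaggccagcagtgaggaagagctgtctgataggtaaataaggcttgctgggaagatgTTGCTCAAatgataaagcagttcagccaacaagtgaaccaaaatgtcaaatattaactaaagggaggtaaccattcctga
Fgg: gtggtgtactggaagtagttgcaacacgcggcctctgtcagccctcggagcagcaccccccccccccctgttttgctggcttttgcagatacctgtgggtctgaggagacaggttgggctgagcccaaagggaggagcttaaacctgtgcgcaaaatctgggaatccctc
F7: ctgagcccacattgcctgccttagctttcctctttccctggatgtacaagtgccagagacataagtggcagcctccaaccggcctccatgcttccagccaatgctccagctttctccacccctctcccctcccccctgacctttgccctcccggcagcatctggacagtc
F10: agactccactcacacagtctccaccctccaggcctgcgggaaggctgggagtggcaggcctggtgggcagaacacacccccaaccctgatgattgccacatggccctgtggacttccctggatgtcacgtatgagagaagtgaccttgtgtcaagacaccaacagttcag
C6: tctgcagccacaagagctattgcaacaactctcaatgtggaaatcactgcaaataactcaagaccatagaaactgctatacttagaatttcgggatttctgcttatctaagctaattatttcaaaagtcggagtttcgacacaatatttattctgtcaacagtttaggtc
The stretches are chr3:83025906-83026075 for Fga, chr3:83049864-83050033 (minus strand) for Fgb, chr3:83007554-83007723 for Fgg, chr8:13025864-13026033 for F7, chr8:13037138-13037307 for F10 and chr15:4727005-4727174 for C6. The first capitals in Fga and in Fgb are STAT matches and the second are C/EBP matches, and the other 4 stretches hold no match to these letters. Over windows from 250 bases before to 50 after the start, which 30 members had, the C/EBP motif was present in 10 (33.3%, against 12.2% of 27025 genes) and the STAT motif in 7 (23.3%, against 9.55%). The HNF1 motif GTTAATNAT was in 4 windows (13.3%, against 0.940%), those of C4bp, F13b, Fga and Hc, and the HNF4A motif CAAAGTCCA in 0 (all genes 0.555%). F9, Fga and Fgb held both a C/EBP and a STAT match. A match describes letters and not binding.

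Of the 4 anticoagulants, 3 were higher in chow, with high-dose zalfermin and with the combination (medians 1.01, 0.50 and 0.58, or -0.06, -0.18 and -0.04 relative to hepatocyte markers). Antithrombin, Serpinc1, the main inhibitor of thrombin and factor Xa (chr1:160978585-161005863, plus strand), was at 1527 to 2111 CPM (median 1786) in DIO-MASH vehicle, 3106 to 4455 CPM (median 3480.1) in chow, 1945 to 2554 CPM (median 2061) with low-dose zalfermin, 1730.2 to 2749 CPM (median 2172) with low-dose semaglutide and 2576 to 3188 CPM (median 2892) with the combination. Chow and combination mice lay above all vehicle mice. It was higher in chow (1.05 ± 0.09, adjusted p = 2.55e-13), with both high doses (0.52 for zalfermin and 0.37 for semaglutide) and with the combination (0.67 ± 0.09, adjusted p = 3.16e-07). Heparin cofactor II, Serpind1, a second thrombin inhibitor (chr16:17331371-17343575, plus strand), was at 351 to 431 CPM (median 379) in vehicle, 471 to 755 CPM (median 495) with low-dose zalfermin, 509 to 908 CPM (median 645) with high-dose zalfermin and 533 to 1078 CPM (median 837) in chow. No mouse of either zalfermin dose lay within the vehicle range. Serpind1 was higher with low-dose zalfermin (0.48 ± 0.11, adjusted p = 0.0343) and high-dose zalfermin (0.77 ± 0.12, adjusted p = 2.20e-06), in chow (1.08 ± 0.12, adjusted p = 4.69e-11), with high-dose semaglutide (0.41 ± 0.11, adjusted p = 0.0391) and with the combination (0.64 ± 0.11, adjusted p = 4.82e-05). Protein C, Proc, which inactivates factors Va and VIIIa, was at 359.6 to 403 CPM (median 382) in vehicle, 393 to 587 CPM (median 416) with low-dose zalfermin and 474 to 607 CPM (median 553) with the combination, and was called in chow (0.97), with high-dose zalfermin (0.48) and the combination (0.52). Its cofactor protein S, Pros1, which cells other than hepatocytes also make, was not called (-0.16 in chow, -0.08 with the combination). In the fit without the 3 mice with high Saa1, 3 of the 4 anticoagulants were called higher in chow and 3 with the combination (medians 0.97 and 0.58), with Serpinc1 at 1.04 and 0.67, Serpind1 at 0.97 and 0.66 and Proc at 0.96 and 0.51. Pros1 was called lower in chow in that fit (-0.45).

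Of the 3 fibrinolysis members, 3 were higher in chow, 2 with high-dose zalfermin and 3 with the combination (medians 1.15, 0.77 and 0.83, or 0.08, 0.10 and 0.22 relative to hepatocyte markers). Plasminogen, Plg, the precursor of plasmin (chr17:12378608-12419385, plus strand), was at 1621 to 1968 CPM (median 1681) in DIO-MASH vehicle, 3126 to 5110.1 CPM (median 3634) in chow and 1849 to 3128 CPM (median 2142) with low-dose zalfermin. It was at 2289.5 to 3230.5 CPM (median 3049) with high-dose zalfermin, 1776 to 3372 CPM (median 2150.1) with low-dose semaglutide, 1723 to 2918 CPM (median 2348) with high-dose semaglutide and 2822 to 3732 CPM (median 3002) with the combination. Chow, high-dose zalfermin and combination mice did not overlap with vehicle. Plg was higher in chow (1.15 ± 0.11, adjusted p = 2.68e-12), with high-dose zalfermin (0.77 ± 0.11, adjusted p = 7.73e-07), high-dose semaglutide (0.46 ± 0.11, adjusted p = 0.0154) and the combination (0.85 ± 0.11, adjusted p = 8.80e-08). Antiplasmin, Serpinf2, which opposes plasmin (chr11:75431732-75439591, minus strand), was at 394 to 533 CPM (median 438) in vehicle, 684 to 1681 CPM (median 1222) in chow, 597 to 911 CPM (median 823) with high-dose zalfermin and 647 to 1269.8 CPM (median 722) with the combination. In low-dose zalfermin and low-dose semaglutide it was at 493 to 822 CPM (median 538) and 423 to 908 CPM (median 516). It was higher in chow (1.48 ± 0.15, adjusted p = 4.77e-12), with high-dose zalfermin (0.83 ± 0.14, adjusted p = 2.75e-05) and with the combination (0.83 ± 0.14, adjusted p = 2.23e-05), each time with no overlap with vehicle. Cpb2, a carboxypeptidase that slows fibrinolysis, was higher in chow (0.54) and with the combination (0.40). With the 3 high-Saa1 mice left out, 3 of the 3 fibrinolysis members were called higher in chow and 2 with the combination (medians 1.02 and 0.71), with Plg at 1.02 and 0.82, Serpinf2 at 1.37 and 0.71 and Cpb2 at 0.32 and 0.29.

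**Figure D4:**
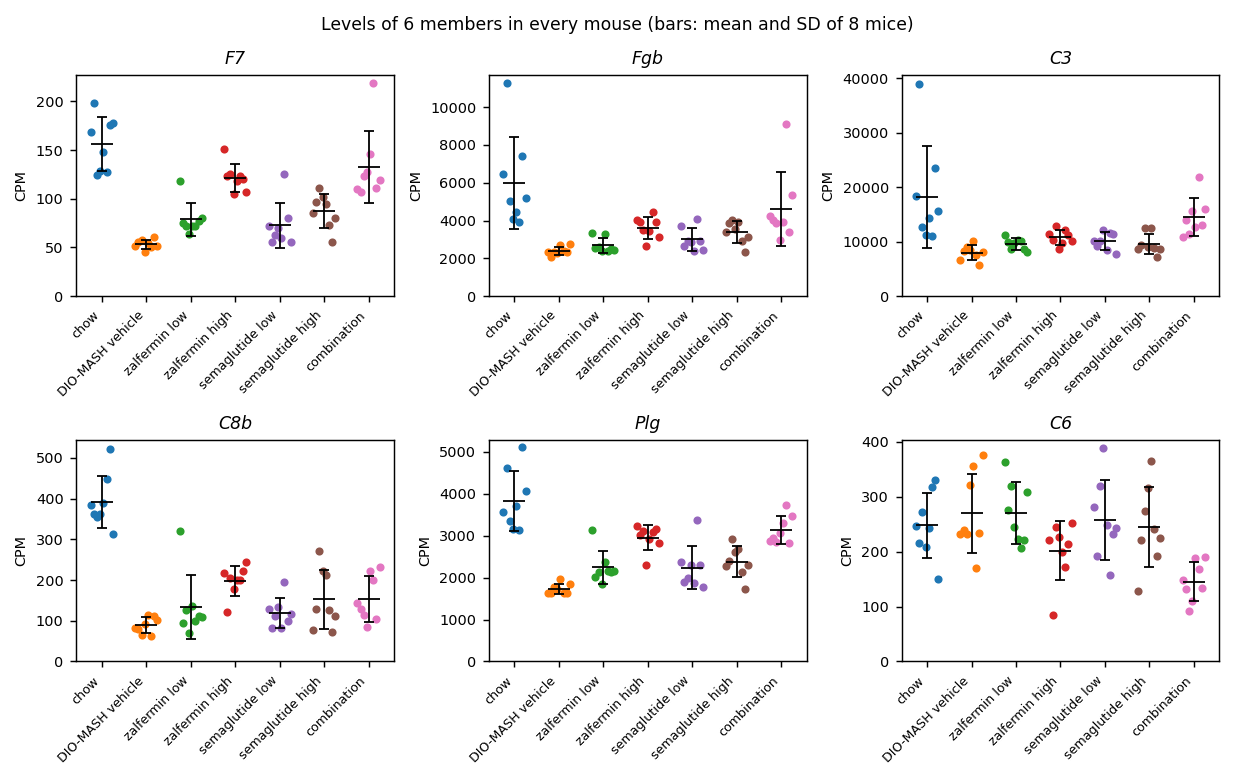
CPM (vertical axis, from 0) of F7, Fgb, C3, C8b, Plg and C6 in each of the 56 mice, by group (horizontal axis), with 1 point per mouse and the mean ± SD of 8 mice in black. F7 runs from 45.3 to 60.4 CPM in DIO-MASH vehicle and from 106 to 219 in the combination, and C6 lies between 92.4 and 190 CPM in the combination; in Fgb and C3 the highest points of chow and combination belong to mice 2 and 6.

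With high-dose semaglutide the 8 calls were Mbl2, F2, F7, F10, Klkb1, Serpinc1, Serpind1 and Plg, and their count rested on single mice. It was 1, F7, without mouse 3 or mouse 4 of that group, and 13 without mouse 7. The 4 B cell markers, whose summed level had a median of a few CPM, were called lower in the same group. Their part in these 8 calls was not tested. With low-dose zalfermin the count of 2 ran from 0 to 3 as single mice were left out. Without low-dose zalfermin mouse 1 F7 was at 0.46 and Serpind1 at 0.40 with 0 called by edgeR. DESeq2 on all mice called 6 members, and 211 genes in all. In chow 1 of 33 calls (F9), with high-dose zalfermin 4 of 21 (C8g, F11, Fga and Fgg) and with the combination 3 of 27 (Hc, F9 and Cpb2) were lost on leaving out some single mouse.

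Comparisons between dosed groups asked whether the combination exceeded its parts and whether dose or drug mattered. Against low-dose zalfermin the combination raised 14 members and lowered C6, where 6.62% of all genes were called. The rises were F7 (0.75 ± 0.14, adjusted p = 4.70e-04), Fga (0.78), Fgb (0.78), Fgg (0.76), C3 (0.59), F10 (0.51), Vtn (0.49), Serpinf2 (0.48), Plg (0.48), Serpinc1 (0.41), Kng1 (0.40), F2 (0.32), Proc (0.31) and F12 (0.23). The count was 12 without the 3 mice with high Saa1 (795 of 14092 genes called) and 10 without combination mouse 6. Relative to hepatocyte markers the median over the members was -0.03, with 5 called higher and 7 lower, where 2915 of 14105 genes were called.

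Against low-dose semaglutide the combination raised 10 members and lowered C6 (all genes 4.21% called). F7 led (0.87 ± 0.14, adjusted p = 7.82e-05), followed by Fgg (0.63), Fgb (0.62), Fga (0.58), Serpinf2 (0.52), Plg (0.48), F10 (0.46), Kng1 (0.36), F2 (0.34) and Serpinc1 (0.33). The count moved from 5 without low-dose semaglutide mouse 5 or combination mouse 6 to 18 without mouse 6 of that group, the liver that resembled that group least. It was 7 without the 3 mice with high Saa1 (508 of 14092 genes called), where all 3 fibrinogen chains were lost, and 2 when only both groups entered the fit. Relative to hepatocyte markers the median was -0.09, with 1 called higher and 8 lower, where 6166 of 14105 genes were called.

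The combination was then set against the high doses. Against high-dose zalfermin edgeR called 0 members and 0.503% of all genes. An unadjusted p under 0.05 was found for 7 members and for 1544 of all 14105 genes. DESeq2 called 1 member (lower), and 176 genes in all. For F7 the difference was 0.13 ± 0.14 (adjusted p = 0.844) with a 95% interval from -0.15 to 0.40, and for Fgb it was 0.35 ± 0.17 (adjusted p = 0.435) with an interval from 0.02 to 0.68. Against high-dose semaglutide C3 (0.59 ± 0.17, adjusted p = 0.0462), F7 (0.60 ± 0.14, adjusted p = 0.0109) and Plg (0.39 ± 0.11, adjusted p = 0.0434) were higher and C6 lower (all genes 1.89% called). C3 was at 7171 to 12528 CPM (median 8883) and C6 at 129 to 365 CPM (median 233) with high-dose semaglutide, so both overlapped with the combination. Of these 4 calls F7 and Plg were lost without the 3 mice with high Saa1, each was lost on leaving out some single mouse (1 was left without combination mouse 4 or 6), and 0 remained when only both groups were fitted.

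Between doses of one drug, F7 (0.63 ± 0.14, adjusted p = 0.0085) and Plg (0.40 ± 0.11, adjusted p = 0.0399) were higher with high-dose than with low-dose zalfermin (all genes 1.84% called). The Plg call was lost on leaving out any of 14 single mice, and F7 was kept each time. Relative to hepatocyte markers 1 member was higher and 10 were lower, where 3705 of 14105 genes were called. For semaglutide edgeR called 0 members and 0% of all genes between doses, and DESeq2 called 0 members and 0 genes in all. An unadjusted p under 0.05 was found for 1 member and for 549 of 14105 genes. Between the drugs at high dose edgeR called 0 members and 0.447% of all genes, and DESeq2 called 0 members and 143 genes in all. An unadjusted p under 0.05 was found for 6 members and for 1361 of 14105 genes. There F7 differed by 0.48 ± 0.14 (adjusted p = 0.107) with an interval from 0.20 to 0.75. The low-dose interaction compares the combination with the sum of both low-dose changes on the log2 scale and presumes the doses of the methods. It was called by edgeR for 0 members (all genes 0.0142% called), and by DESeq2 for 0 members and 14 genes in all. At an unadjusted p under 0.05 were 2 members and 952 of 14105 genes. C6 had the largest value (-0.83 ± 0.27, adjusted p = 0.444, interval -1.36 to -0.31), and F7 stood at 0.31 ± 0.20 (adjusted p = 0.853) with an interval from -0.08 to 0.69.

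Other genes of both systems, from a list of 25 complement and 24 coagulation and fibrinolysis genes, moved in both directions. Of the 25 complement genes 7 were higher and 10 lower in chow, 6 and 3 with high-dose zalfermin, 7 and 3 with the combination and 1 and 0 with high-dose semaglutide. In the fit without the 3 high-Saa1 mice 6 were higher and 11 lower in chow and 8 and 3 with the combination. The largest changes were in Cfd, the adipocyte-rich protease adipsin (chow: -4.87 ± 0.69, adjusted p = 4.50e-08, high-dose zalfermin: -2.73 ± 0.56, adjusted p = 3.54e-04, combination: -5.20 ± 0.70, adjusted p = 1.72e-07), and Itgax, a complement receptor of myeloid cells (chow: -4.07 ± 0.40, adjusted p = 6.77e-12, high-dose zalfermin: -1.001 ± 0.32, adjusted p = 0.0236, combination: -1.05 ± 0.32, adjusted p = 0.0148). The third largest was the receptor C3ar1 in chow (-2.82 ± 0.30, adjusted p = 5.27e-11) and the lectin Fcna with high-dose zalfermin (0.97 ± 0.25, adjusted p = 0.00362) and the combination (0.99 ± 0.25, adjusted p = 0.00273), and the 1 change with high-dose semaglutide was C1ra (0.27 ± 0.08, adjusted p = 0.0386). Of the 24 coagulation genes 5 were higher and 16 lower in chow, 4 and 6 with high-dose zalfermin, 4 and 9 with the combination, 1 and 1 with high-dose semaglutide and 1 and 0 with low-dose zalfermin. In the same fit they were 4 and 16 in chow and 4 and 8 with the combination. In chow the largest were Plat, tissue plasminogen activator (-3.36 ± 0.48, adjusted p = 5.03e-08), the protease inhibitor A2m (-3.04 ± 0.71, adjusted p = 2.72e-04) and the plasminogen receptor Anxa2 (-3.02 ± 0.39, adjusted p = 4.34e-09). With high-dose zalfermin they were Anxa2 (-2.31 ± 0.37, adjusted p = 7.03e-06), Serpina5, the protein C inhibitor (-2.24 ± 0.63, adjusted p = 0.00865), and Plat (-1.65 ± 0.41, adjusted p = 0.0026). With the combination they were Serpina5 (-2.55 ± 0.63, adjusted p = 0.00264), A2m (-2.29 ± 0.63, adjusted p = 0.00656) and Anxa2 (-2.21 ± 0.37, adjusted p = 1.32e-05). High-dose semaglutide lowered Anxa2 (-1.39 ± 0.36, adjusted p = 0.0241) and raised Proz, protein Z of the liver (0.39 ± 0.09, adjusted p = 0.0113), which low-dose zalfermin raised as well (0.39 ± 0.09, adjusted p = 0.0238).

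Of the 18 acute phase genes 11 were higher and 0 lower in chow (median 0.87), 7 and 0 with the combination (median 0.60) and 4 and 0 with high-dose zalfermin (median -0.18). The chow result turned on the mice with high Saa1: without the 3 mice 4 were higher and 9 lower in chow (median -0.35), and 7 higher and 2 lower with the combination (median 0.11). The summed level of the list was 14738 to 21676 CPM in DIO-MASH vehicle (median 19491) and 15746 to 21982 with high-dose zalfermin (median 19035). In chow it was 14149 to 104908 CPM (median 18242), where mice 2 and 7 had 104908 and 53467 and the other 6 between 14149 and 21726. With the combination it was 16023 to 50394 CPM (median 22299). Several members are acute phase proteins themselves, and the part of the acute phase in the member rises of chow and combination was not tested beyond leaving out the 3 mice. Across the members, the spread between mice of a group had a median biological coefficient of variation of 18.04%, against 13.96% for the 7014 genes at or above the lowest mean level of a member.

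Some values rest on gene models that share sequence or position. C4b has a close copy, which was not analysed here, and Kng1 a paralog, Kng2, so that reads could be split between them. Serpind1 overlaps Pi4ka, Plg overlaps Slc22a3, Masp2 overlaps Tardbp and C8g overlaps Fbxw5, each on the opposite strand. So do C8a with Gm17662, Serpinc1 with Zbtb37, Masp1 with Rtp4 and C2 with Zbtb12. Klkb1 overlaps the coding gene Gm45753 on the same strand, so that reads could be split between these 2 even if strand was used. C2 and Cfb are adjacent on the same strand and share the read-through gene Gm20547, so their levels could be too low. The library kit marked strand, but whether the counting used it is not given in the sources used here.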

How the data were processed

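Livers of 56 mice (8 in each of 7 groups) were profiled by stranded mRNA sequencing. The authors deposited 1 table with the number of reads counted per gene for every mouse, as raw counts without normalization. The study's methods name STAR v2.5.2a and build GRCm38, while the submitters' processing notes name Trim Galore 0.6.4, Salmon 1.9.0 and GRCm38. Which of them gave the counts is not given in the sources used here, and estimated counts would carry the uncertainty of splitting reads between similar genes. Groups came from the labels, and mice were numbered in the order of their records.

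Genes that reached 5 reads in at least 3 mice (14105 of 21935) were fitted with edgeR 4.0.16 in R 4.3.3: TMM scaling, 1 quasi-likelihood fit of 7 groups without covariates, two-sided F tests, Benjamini-Hochberg adjustment over all genes tested and a threshold of 0.05. The SE is the log2 fold change divided by the root of the F statistic, and 95% intervals are normal ones from that SE. The common biological coefficient of variation was 22.6%; depth limits the precision of low genes, and the lowest member mean was 12.1 CPM at a median depth of 12206788 reads. CPM used TMM library sizes, and log2 CPM a prior count of 2. The study's methods say that animals were housed singly after the biopsy operation, and the labels give neither litters nor earlier cages. The tests took each mouse as independent and judged differences against the spread between mice. No 2 mice of a group were copies: in the most similar pair the chi-square over genes was 7.93 times its degrees of freedom. The fit was tested on simulated counts for the combination against vehicle with 13966 genes tested. Of 98 genes changed by 1 on the log2 scale 74.5% were recovered, and of 100 changed by 0.5 48.0%. Of the calls 6.20% were false. The changed genes were drawn from all levels and were far fewer than the 2953 called in the data. These rates are thus not rates for the member calls.

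The members, gene lists and motifs were chosen with earlier results of these data known. All 39 members are accounted for. Per-mouse values are given for the 4 largest rises and falls past the threshold in each comparison with vehicle and for members past it between dosed groups, and of other pathway genes the 3 largest changes per comparison are named. Further marker lists checked the tissue label. Gene positions and exon lengths came from GENCODE M21 on GRCm38, promoter windows from RefSeq (GRCm38.p6). Alternatives were DESeq2 1.42.0 (Wald test), its size factors in edgeR, scaling to 11 hepatocyte markers, no filter beyond 1 read, a stricter filter of 10 reads in at least 8 mice, a term for the number series of the labels, fits of the compared groups alone, omission of single mice and, added after seeing the data, the 3 mice above 1000 CPM of Saa1 left out. Figures were drawn with matplotlib 3.10.9. Histology, body weight and biochemistry were not analysed here.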

Additional observations from a re-analysis of the deposited data

Results flagged for a closer look

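For each member and group of 8 mice, the gap between the highest or lowest mouse and the next was divided by the range of the group and compared with the 95% critical value of Dixon's test. Chance flags about 1 in 20 groups, and 42 values in 273 sets were singled out. Members of one mouse share its library, so these values are not independent.

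Low-dose zalfermin mouse 1 held 13 of them, each the highest of its group: Masp1 at 112 CPM, Hc at 1341 CPM, C8a at 860.5 CPM, C8b at 320.1 CPM, Cfi at 901 CPM, Vtn at 3153 CPM, F2 at 2224 CPM, F7 at 118 CPM, F11 at 55.5 CPM, Klkb1 at 252 CPM, F13b at 235 CPM, Proc at 587 CPM and Plg at 3128 CPM. Its summed hepatocyte markers (108863 CPM) and their mean log2 CPM (11.50, next 11.14) were also the highest of the group, and its Saa1 of 61.6 CPM was the lowest of its group. Combination mouse 6 held 7 of them, each the highest of its group: C3 at 21874 CPM, Vtn at 5021 CPM, F7 at 219 CPM, Fga at 9818 CPM, Fgb at 9124 CPM, Fgg at 6849 CPM and Serpinf2 at 1269.8 CPM. Its Saa1 of 1522 CPM was the highest of its group. Low-dose semaglutide mouse 6 held 7 of them, each the highest of its group: C8b at 196 CPM, F7 at 125 CPM, Klkb1 at 243 CPM, F13b at 235 CPM, Serpind1 at 718 CPM, Plg at 3372 CPM and Serpinf2 at 908 CPM. Its Saa1 of 73.9 CPM was the lowest of its group. The remaining values came from mice with 3 or fewer each. They were Masp1 in DIO-MASH vehicle mouse 7 (lowest, 49.3 CPM), C3 in chow mouse 2 (highest, 39052 CPM), C6 in high-dose zalfermin mouse 2 (lowest, 85.2 CPM), C9 in chow mouse 7 (highest, 1147 CPM), F2 in DIO-MASH vehicle mouse 8 (highest, 1698 CPM), F7 in high-dose zalfermin mouse 1 (highest, 152 CPM) and F10 in DIO-MASH vehicle mouse 8 (highest, 483 CPM). Further values were F11 in DIO-MASH vehicle mouse 5 (highest, 39.9 CPM), F5 in high-dose semaglutide mouse 3 (highest, 1282 CPM), F13b in high-dose zalfermin mouse 1 (highest, 257 CPM), Fgb in chow mouse 2 (highest, 11262 CPM), Pros1 in DIO-MASH vehicle mouse 1 (lowest, 89.1 CPM), Serpinc1 in DIO-MASH vehicle mouse 8 (highest, 2111 CPM), Plg in high-dose zalfermin mouse 4 (lowest, 2289.5 CPM) and Cpb2 in high-dose zalfermin mouse 1 (highest, 534 CPM). The part of these mice in the group differences was not tested beyond leaving each out in turn.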

How the results depend on the processing

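Of the 123 member calls over 14 comparisons, 18 were kept in every setting. DESeq2 kept 123, its size factors 121, the stricter filter 121, the number series 122, no filter 113, only the groups compared 105 and leaving out the 3 mice with high Saa1 108, and none of these settings reversed a direction. Scaling to hepatocyte markers sets their mean log2 level equal in all mice by construction. Under TMM their median had exceeded that of the members (1.18 against 0.86 in chow, 0.66 against 0.45 with the combination). Scaled to the markers, 20 calls were kept and 54 were reversed. For chow these were Mbl1 -0.47, Mbl2 -0.21, Masp1 -0.76, Masp2 -0.45, C1s1 -0.82, C2 -0.19, Hc -0.47, C8a -0.13, C8g -0.25, Cfi -0.22, Serping1 -0.49, Vtn -0.046, F2 -0.26, F9 -0.74, F11 -0.15, F12 -0.39, F5 -0.66, F13b -0.49, Proc -0.10, Serpinc1 -0.026 and Cpb2 -0.52. With high-dose zalfermin these were Mbl2 -0.078, Masp2 -0.38, C8g -0.28, Serping1 -0.23, Vtn -0.20, F2 -0.23, F10 -0.035, F11 -0.22, Kng1 -0.22, F13b -0.23, Fga -0.18, Fgb -0.079, Fgg -0.13, Proc -0.20 and Serpinc1 -0.16. For high-dose semaglutide these were F2 -0.074 and Serpinc1 -0.019. With the combination these were Masp2 -0.31, Hc -0.17, C8g -0.16, Cfi -0.13, Serping1 -0.17, F2 -0.066, F9 -0.29, F12 -0.29, Kng1 -0.065, Klkb1 -0.13, F13b -0.26, Proc -0.10 and Cpb2 -0.22. For the combination against low-dose zalfermin it was F12 -0.027. With the combination against low-dose semaglutide these were F2 -0.0035 and Serpinc1 -0.017. The member medians became -0.22 (chow), -0.16 and -0.24 (low- and high-dose zalfermin), -0.086 and -0.13 (low- and high-dose semaglutide) and -0.17 (combination). Under it the combination had 16 member calls against vehicle, high-dose zalfermin 11 against its low dose and 5 against high-dose semaglutide. Of all 14105 genes, 10964, 3705 and 3545 were called in these 3 comparisons.

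Other counts that moved by over 1.5 times were as follows, and the cause was not tested. DESeq2 gave 6 members for low-dose zalfermin (211 genes in all) and 2 with semaglutide at the low dose (32 in all). It gave 1 for the combination against high-dose zalfermin (176 in all) and 7 against high-dose semaglutide (415 in all). For low-dose zalfermin, DESeq2 size factors, no filter and the stricter filter each gave 1 and the number series 4. The number series gave 1 for the combination against high-dose zalfermin. No filter gave 2 for the combination against high-dose semaglutide and 1 between zalfermin doses. With only the groups compared, the combination had 2 calls against low-dose semaglutide and 0 against high-dose semaglutide, and zalfermin doses differed in 4. Without the 3 mice with high Saa1 the combination had 7 calls against low-dose semaglutide and 2 against high-dose semaglutide, and zalfermin doses differed in 4.

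Leaving out 1 mouse at a time gave 32 to 33 members for chow, 0 to 3 for low-dose zalfermin, 17 to 24 for high-dose zalfermin, 0 with semaglutide at its low dose, 1 to 13 for high-dose semaglutide and 24 to 28 for the combination. It gave 10 to 16 for the combination against low-dose zalfermin, 5 to 18 against low-dose semaglutide, 0 against high-dose zalfermin and 1 to 4 against high-dose semaglutide, 0 to 1 between the high doses, 1 to 6 between zalfermin doses, and 0 between semaglutide doses and for the interaction. No paired analysis was possible because the labels give no replicate numbers shared between groups and do not say what neighbouring sample numbers share. Depth limits Cfb most, the member with the fewest reads.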
